A study of Mus musculus with 2 samples.

Results

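The 9 genes described here encode receptor chains and ligands of the common γ-chain cytokine family: the receptor genes Il2rg, Il2ra, Il2rb, Il15ra, Il7r, Il21r and Il4ra, and the ligand genes Il15 and Il7. They were chosen by name, with earlier results of these data known, and all 9 were found among the 33696 genes of the deposited matrices. Their UMIs (unique molecular identifiers, 1 per captured RNA molecule) were read across T cell subsets, NK, innate lymphoid, B, myeloid and stromal cells. The cells were live cells sorted from enzymatically dissociated lungs of adult mice and sequenced with 10x 3′ chemistry, with a single library for each of the labels GFI1 KO and WT. The knockout is a germline one on a C57BL6/J background, so every cell of those mice carries it, and GFI1 is a zinc finger repressor of transcription in blood cells. With 1 library per genotype there is no test, and effects of the genotype cannot be told apart from those of the mouse or the preparation.

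Receptors of this family mostly signal through the common γ chain, which pairs with a chain that binds the individual cytokine. IL-7 keeps naive T cells and many innate lymphoid cells alive, and IL-15, shown to neighbouring cells by the IL-15 receptor α chain, does the same for NK cells and memory CD8 T cells. IL-2 acts through a high-affinity receptor that adds the α chain CD25, the mark of regulatory T cells and of recently activated lymphocytes, while IL-4 and IL-21 act on B cells, T cells and macrophages. Inside the cell the kinases JAK1 and JAK3 activate STAT proteins, whose targets include the SOCS family of feedback inhibitors.

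The GFI1 KO library held 10495 cells after filtering (median 11076 UMIs) and the WT library 19342 (median 6217 UMIs), and 74 cell barcodes occurred in both. Cells were grouped into 24 named classes from lists of marker genes, written as "-like" because the names were rebuilt here, and 16 of them had at least 50 cells in each library. Levels are in CPM, the UMIs of a gene per 1000000 UMIs of its class. Gfi1 RNA stood at 3.6 CPM (95% interval 3.23 to 4.0) in the first library and 3.46 CPM (3.16 to 3.79) in the second, so its level does not check the labels and the libraries are called by them. These are levels over all cells of a library, and they do not show whether Gfi1 RNA was alike within a class. The make-up of the libraries differed widely. Classical monocyte-like cells numbered 3239 and 78, neutrophil-like cells 8 and 1430, NK-like cells 218 and 2035, general capillary endothelial-like cells 99 and 1918, and innate lymphoid type 2 (ILC2)-like cells 9 and 153, in each case with the GFI1 KO label first. That order is kept below wherever a pair of values is given. A level has an exact Poisson 95% interval, and a ratio is the level under the GFI1 KO label over that under the WT label with an exact conditional 95% interval. All intervals cover counting error only. Levels of different genes are not compared.

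A pair of gene and class was compared where it had at least 30 UMIs over both libraries, and called where the ratio was at least 2 or at most 0.5 with an interval that left out 1. Of 128 such pairs of the 9 genes, 10 (7.81%) were called higher and 18 (14.1%) lower under the GFI1 KO label. Over all genes and named classes the shares were 3.51% higher and 4.53% lower. In the 16 classes with at least 50 cells in each library, 9 of 98 pairs (9.18%) were higher and 15 (15.3%) lower, against 3.37% and 4.45% of all pairs. The median log2 ratio of the 98 pairs was 0.0084, and that of all pairs -0.0220. Calls of both kinds were thus more frequent among the 9 genes, without a common direction. None fell among the 6, 5, 5 and 6 genes compared in γδ effector-like, naive CD4-like, naive CD8-like and memory CD8-like cells. Many lay in epithelial-like, dendritic-like, monocyte-like, macrophage-like and unresolved myeloid cells. Limits of several of these classes, among them doublet calls and markers against the name, are given below.

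**Figure D1:**
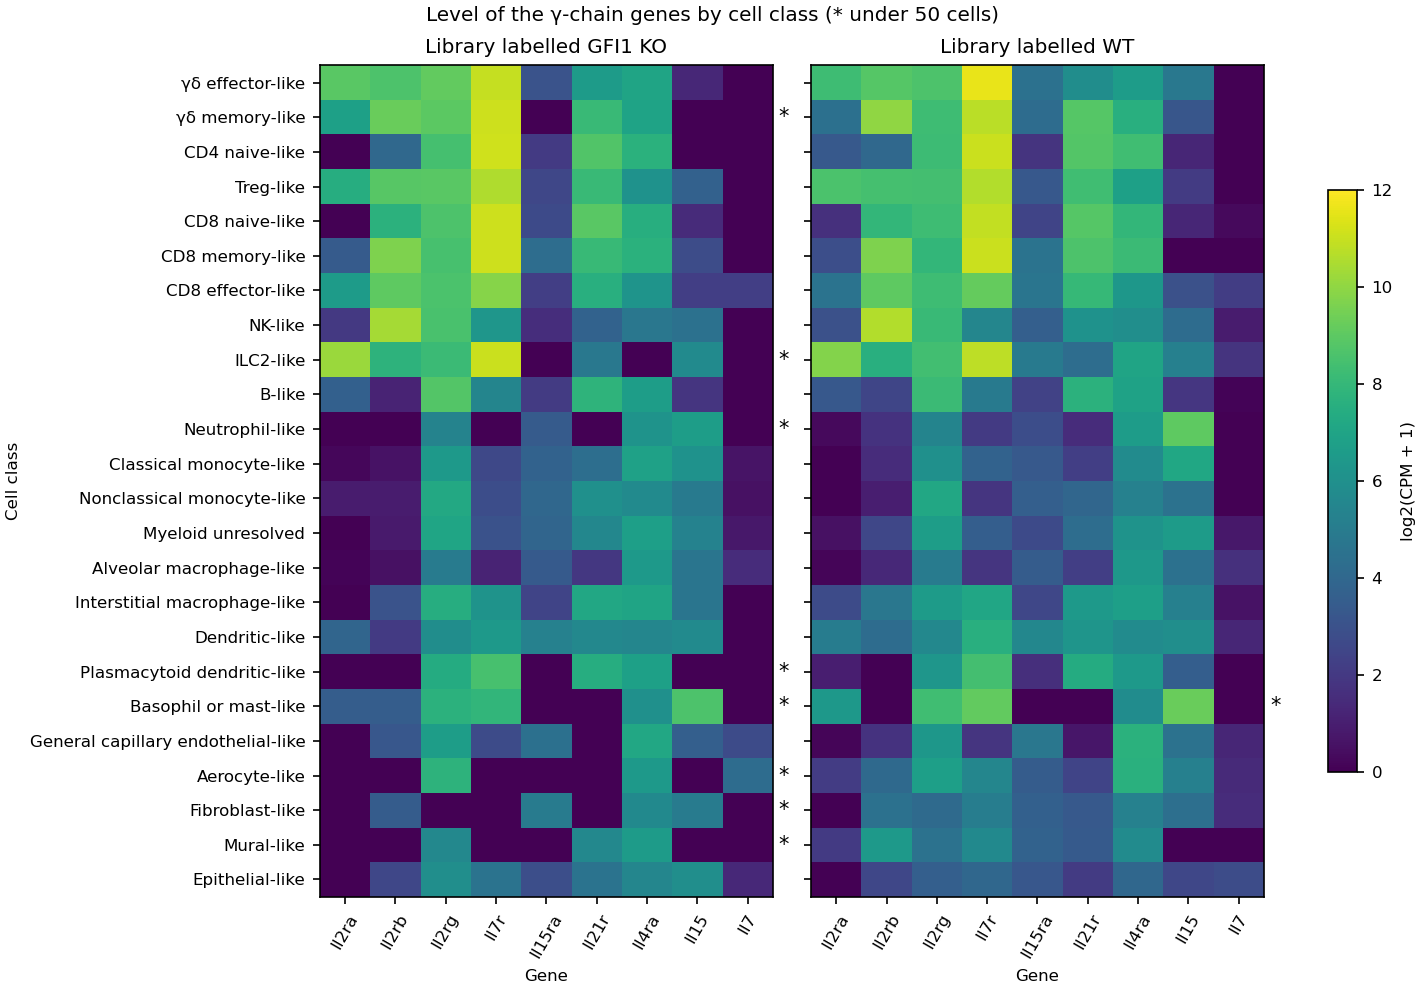
Level of each of the 9 genes (columns) in each named class (rows), coloured by log2(CPM + 1), with the library labelled GFI1 KO on the left and that labelled WT on the right, and an asterisk beside classes under 50 cells. The Il7r column is brightest in the T cell and ILC2-like rows, the Il2rb column in the NK-like row, and the Il7 column is dark throughout.

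Il2rg (ENSMUSG00000031304), which encodes the common γ chain itself, was found in every lymphoid class. It was highest in γδ effector-like T cells, at 547 CPM (493 to 606) and 394 CPM (329 to 468). It stood at 483 and 345 CPM in regulatory T (Treg)-like cells, 447 and 291 CPM in B-like cells, 402 and 306 CPM in naive CD8-like cells and 373 and 282 CPM in NK-like cells. The intervals of γδ effector-like and Treg-like cells overlapped in both libraries, and under the WT label those of B-like, NK-like and naive CD4-like cells (300 CPM, 280 to 321) touched or overlapped. Macrophages lay lower, at 31.2 and 30.4 CPM in alveolar macrophage-like cells. In interstitial macrophage-like cells the levels were 175 and 94.2 CPM, with a ratio of 1.85 (1.49 to 2.29).

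The ratio of Il2rg was above 1 in all 16 classes with at least 50 cells per library, a pattern that 40 of 4183 genes (0.956%) compared in all 16 shared. The interval lay above 1 in 9 of the 16 classes, and 275 of the 4183 genes (6.57%) had as many. In B-like cells the ratio was 1.53 (1.44 to 1.63), in memory CD8-like cells 1.47 (1.22 to 1.79), in Treg-like cells 1.40 (1.17 to 1.68) and in NK-like cells 1.32 (1.18 to 1.47). In alveolar macrophage-like cells it was 1.02 (0.941 to 1.11), the lowest of the 16, and the highest, 5.39, came from epithelial-like cells, whose GFI1 KO cells went against their name as described further on. Summed over whole libraries the order turned, with 109 and 115 CPM and a ratio of 0.953 (0.930 to 0.978). With the WT class levels and the GFI1 KO make-up of UMIs, the library level would be 83.3 CPM, and with the reverse combination 152 CPM. Levels within the 16 classes were thus higher or alike under the GFI1 KO label while the make-up of that library lowered its sum. Among smaller classes the ratio was below 1 in ILC2-like (0.878), neutrophil-like (0.969), basophil or mast-like (0.636) and fibroblast-like cells (0 and 35 UMIs). Each of these intervals held 1. It was above 1 in γδ memory-like, aerocyte-like and plasmacytoid dendritic-like cells.

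**Figure D2:**
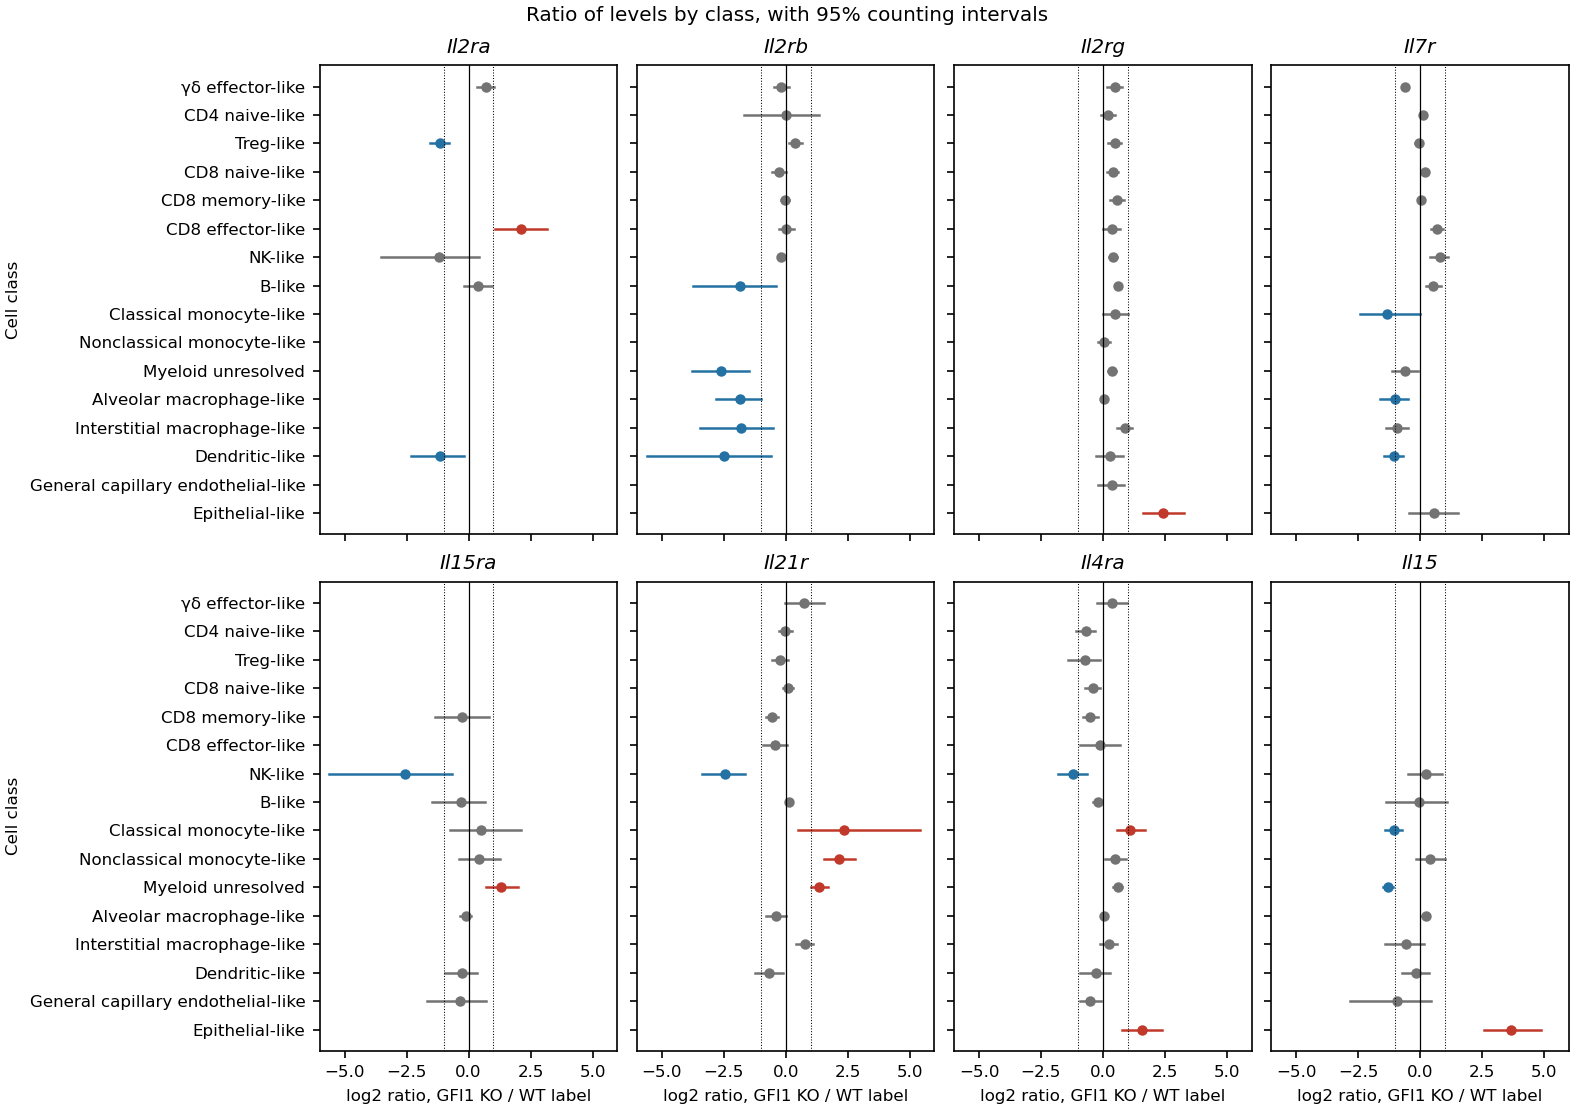
log2 ratio of levels, GFI1 KO label over WT label (horizontal axis), by class (vertical axis), for the 8 genes other than Il7 in classes with at least 50 cells in each library and pairs with at least 30 UMIs, with lines for exact 95% intervals from counting. Dotted lines mark 2-fold, red and blue mark pairs called higher and lower and grey those not called, Il2rg lies right of 0 in all 16 classes, and NK-like cells are blue for Il15ra, Il21r and Il4ra.

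Il2ra (ENSMUSG00000026770) encodes CD25, the α chain of the high-affinity IL-2 receptor, and was found mainly in a few lymphoid classes. ILC2-like cells had the highest level, at 1172 CPM (852 to 1574, 44 UMIs in 9 cells) and 864 CPM (801 to 930), and these intervals overlap. γδ effector-like cells came next under the GFI1 KO label, with 492 CPM (441 to 548) and 307 CPM (250 to 372). Under the WT label Treg-like cells, at 391 CPM (352 to 434), had a higher level than γδ effector-like cells, with overlapping intervals. Naive CD4-like cells had 0 UMIs, which allows up to 9.33 CPM, and 9.24 CPM, and naive CD8-like cells 0 UMIs, allowing up to 5.40 CPM, and 2.22 CPM. In general capillary endothelial-like cells, taken as the background of free RNA, 0 of 88 and 0 of 1852 cells thinned to 1500 UMIs had an Il2ra UMI, which allows shares of up to 3.41% and 0.162%. In γδ effector-like cells 38.6% and 31.8% of thinned cells had a UMI (74.0% and 58.2% without thinning).

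The classes that carry CD25 RNA did not move together. In Treg-like cells the Il2ra level was 175 CPM (137 to 220) and 391 CPM, giving a ratio of 0.447 (0.342 to 0.577). In effector CD8-like cells it was 96.1 CPM (62.8 to 141, 26 UMIs) and 22.5 CPM (12 to 38.5, 13 UMIs), giving a ratio of 4.27 (2.12 to 9.05). In γδ effector-like cells the ratio was 1.60 (1.28 to 2.02), under the 2-fold limit. Effector CD8-like and Treg-like cells therefore lay on opposite sides, and the difference between them was not tested.

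The Treg-like value depended on how the cells were taken. This class had all 8 Treg markers and 7 of 8 effector CD4 markers raised, and a UMI of Foxp3, the defining factor of regulatory T cells, was found in 24 of 113 cells (21.2%) and 55 of 207 cells (26.6%). Among cells with a Foxp3 UMI, Il2ra was 341 and 951 CPM, giving a ratio of 0.359 (0.249 to 0.504). Among those without, it was 111 and 165 CPM, giving a ratio of 0.670 (0.439 to 0.999). When cells were taken by single genes in place of clusters (26 and 74 cells), the ratio was 0.772 (0.558 to 1.05) and its interval held 1.

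In γδ T cells the same gene depended on make-up. γδ effector-like cells numbered 146 and 67, and γδ memory-like cells, whose Il2ra level was 112 CPM (10 UMIs) and 20.4 CPM (17 UMIs), numbered 14 and 162. The γδ memory-like class rested on 4 of 8 γδ and 4 of 8 CD8 markers, a tie that its leading genes broke. Over both γδ classes the Il2ra ratio was 4.39 (3.55 to 5.45), and 4.88 (3.52 to 6.89) in cells gated by single genes, against 1.60 within the effector class. The pooled value thus holds both a higher level within the effector class and its larger share. Among effector-like cells with a UMI of Trdc, the δ chain constant gene (66 and 17 cells), the ratio was 1.37 (0.908 to 2.16), with an interval that held 1. Among those without it was 1.65 (1.25 to 2.20).

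Il2rb (ENSMUSG00000068227) encodes the β chain that IL-2 and IL-15 receptors share, and was foremost a gene of NK-like cells. Their level was 1341 CPM (1271 to 1414) and 1549 CPM (1522 to 1577), with a ratio of 0.865 (0.818 to 0.915). After thinning, 85.8% and 84.8% of NK-like cells had an Il2rb UMI (97.7% and 97.2% without thinning), against 1.14% and 0.324% of general capillary endothelial-like cells (1.01% and 1.15% without thinning). Memory CD8-like cells followed at 808 CPM (754 to 865) and 823 CPM (753 to 897), giving a ratio of 0.982 (0.878 to 1.10). γδ memory-like cells had 605 and 1037 CPM, effector CD8-like cells 521 and 512 CPM, Treg-like cells 464 and 356 CPM, and γδ effector-like cells 403 and 457 CPM. Naive CD8-like cells had 205 and 248 CPM and naive CD4-like cells 15.5 and 15.6 CPM. The order NK, memory CD8, naive CD8, naive CD4 was the same in both libraries, and the intervals of these 4 classes did not overlap.

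Over whole libraries Il2rb was 40.6 and 139 CPM, giving a ratio of 0.291 (0.281 to 0.301), lower than within any of these lymphoid classes. WT class levels combined with the GFI1 KO make-up would give 46.3 CPM, and GFI1 KO levels with the WT make-up 120 CPM. With the 16 classes weighted equally the levels were 237 and 252 CPM. Most of the gap between whole libraries thus lay in their make-up, and NK-like cells were 218 of 10495 and 2035 of 19342 cells. The 5 classes in which Il2rb was called lower were B-like, dendritic-like, alveolar and interstitial macrophage-like cells and the unresolved myeloid class, all with at most 26.3 CPM. In B-like cells the values were 1.31 CPM (4 UMIs) and 4.69 CPM (57 UMIs). The NK-like share of cells was larger under the WT label, and whether free NK RNA had a part in these low levels was not tested. In alveolar macrophage-like and interstitial macrophage-like cells the direction turned under another clustering.

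Il15ra (ENSMUSG00000023206), whose product binds IL-15 and presents it to neighbouring cells, was sparse everywhere, with 1063 and 1548 UMIs in whole libraries. Dendritic-like cells had the highest level among classes with at least 50 cells per library, at 37.7 CPM (24.1 to 56.1) and 45.7 CPM (39.4 to 52.7). General capillary endothelial-like cells had 20.3 and 25.9 CPM, and memory CD8-like cells 18.6 and 22.5 CPM. The intervals of these 3 classes overlapped under the GFI1 KO label, where endothelial-like cells gave 7 UMIs. Whole libraries did not differ beyond counting error, at 11.3 and 11.4 CPM.

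NK-like cells set Il15ra, Il21r and Il4ra apart from Il2rb and Il2rg. Il15ra had 2 UMIs (1.96 CPM) against 91 UMIs (11.6 CPM), giving a ratio of 0.169 (0.0201 to 0.627). Il21r, which encodes the receptor for the follicular helper cytokine IL-21, had 13 UMIs (12.7 CPM, 6.77 to 21.7) against 544 UMIs (69.3 CPM, 63.6 to 75.4), giving a ratio of 0.184 (0.0971 to 0.317). Il4ra, which encodes the IL-4 receptor α chain, had 26.4 CPM (17.4 to 38.4) and 60.4 CPM (55.1 to 66.1), giving a ratio of 0.437 (0.285 to 0.645). All 3 chains thus lay on the lower side, while Il2rg stood at 1.32 and Il7r at 1.73 (1.34 to 2.21) in the same cells.

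Of the 8 genes compared in NK-like cells, 3 were called lower and 0 higher, a share of 37.5% against 4.58% of all genes lower and 3.44% higher in that class. NK-like cells formed 1 cluster, the summed level of 8 NK markers was 16396 and 17383 CPM, that of 8 T cell markers 647 and 641 CPM, and 0.459% and 0.147% of the cells were called doublets. After thinning, 0.948% and 6.88% of NK-like cells had an Il21r UMI (3.67% and 16.7% without), and 0 of 88 and 0 of 1852 endothelial-like cells did. Over the alternatives the log2 ratio of Il21r in these cells stayed between -2.95 and -2.15. Gated by single genes, NK cells gave 17 and 654 Il21r UMIs and a ratio of 0.161 (0.0933 to 0.260). The same gate gave 0.575 (0.434 to 0.75) for Il4ra, short of the 2-fold limit, and 1.19 (0.953 to 1.48) for Il7r, with an interval that held 1.

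Il7r (ENSMUSG00000003882) encodes CD127, the IL-7 receptor α chain, and was high across T cells and ILC2-like cells. Naive CD4-like cells had 2232 and 2074 CPM, naive CD8-like cells 2198 and 1938 CPM, memory CD8-like cells 2170 and 2127 CPM, ILC2-like cells 2104 and 1813 CPM, and Treg-like cells 1495 and 1549 CPM. Under the GFI1 KO label the first 4 of these had overlapping intervals and could not be ordered. Effector CD8-like cells were lower, at 917 CPM (806 to 1038) and 574 CPM (514 to 640), giving a ratio of 1.60 (1.35 to 1.89). B-like cells had 42.3 and 29.1 CPM and NK-like cells 77.3 and 44.7 CPM.

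γδ effector-like cells had a lower Il7r level under the GFI1 KO label. This class had all 8 γδ markers raised, and all 8 effector CD4 markers as well, against 3 of 8 CD4 T cell markers. Its Il7r level was 1990 CPM (1885 to 2100) against 3065 CPM (2880 to 3259), the highest of all classes under the WT label, and the ratio was 0.649 (0.598 to 0.705). The ratios of the naive CD4-like (1.08, 0.995 to 1.16) and memory CD8-like cells (1.02, 0.953 to 1.09) held 1, that of naive CD8-like cells was 1.13 (1.07 to 1.205), and 15.7% of the genes compared in γδ effector-like cells had a lower ratio. After thinning, 82.1% and 92.4% of γδ effector-like cells had an Il7r UMI (93.8% and 100% without). Cells with a UMI of Trdc, the δ chain constant gene, made up 66 of 146 (45.2%) and 17 of 67 (25.4%). Among them Il7r was 1530 CPM (1404 to 1665) and 3732 CPM (3296 to 4210), giving a ratio of 0.410 (0.353 to 0.477). Among cells without a Trdc UMI it was 2501 and 2884 CPM, giving a ratio of 0.867 (0.784 to 0.959). Under the GFI1 KO label cells with Trdc had less Il7r than cells without, and under the WT label they had more. Over both γδ classes, whose make-up differed as given above, the ratio was 0.955 (0.895 to 1.02), and in γδ cells gated by single genes (80 and 97 cells) 0.869 (0.787 to 0.959). The differences between classes were not tested.

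The libraries also carried antibody tags, which allow the protein to be read beside the RNA. The CD127 tag had a median of 19 UMIs per γδ effector-like cell (quartiles 9 and 30) under the GFI1 KO label and 42 (31 and 58) under the WT label, while an isotype control tag had medians of 1 and 2. The mean above isotype was 21.2 and 43.4 UMIs, and CD127 made up 3.0% and 5.77% of all tag UMIs. The quartile ranges of CD127 did not overlap between the libraries in this class. Divided by the isotype tag, which was itself lower under the GFI1 KO label, CD127 was 15 and 15.9, so that the gap was not seen on this scale. The same division gave higher values under the GFI1 KO label in every other T cell class. It gave 13.7 and 5.95 in naive CD8-like, 10.7 and 6.34 in naive CD4-like and 9.52 and 5.19 in Treg-like cells. B-like cells had 2.24 and 2.40. Naive CD8-like cells had CD127 medians of 14 and 14, naive CD4-like cells 14.5 and 16, and memory CD8-like cells 21 and 17. The median was also lower under the GFI1 KO label in Treg-like (9 and 13), B-like (3 and 6), NK-like (3 and 5) and alveolar macrophage-like cells (2 and 12), so a lower tag count was not particular to γδ effector-like cells. Within γδ effector-like cells the medians were 19.5 and 39 with a Trdc UMI and 16 and 46 without. Across classes with at least 50 cells in a library, Spearman's rho with the Il7r level was 0.732 (16 classes) and 0.805 (23 classes) for the tag per isotype UMI, and 0.426 and 0.339 for the tag median. These are descriptions of rank, and the classes of a library share its depth and staining.

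**Figure D3:**
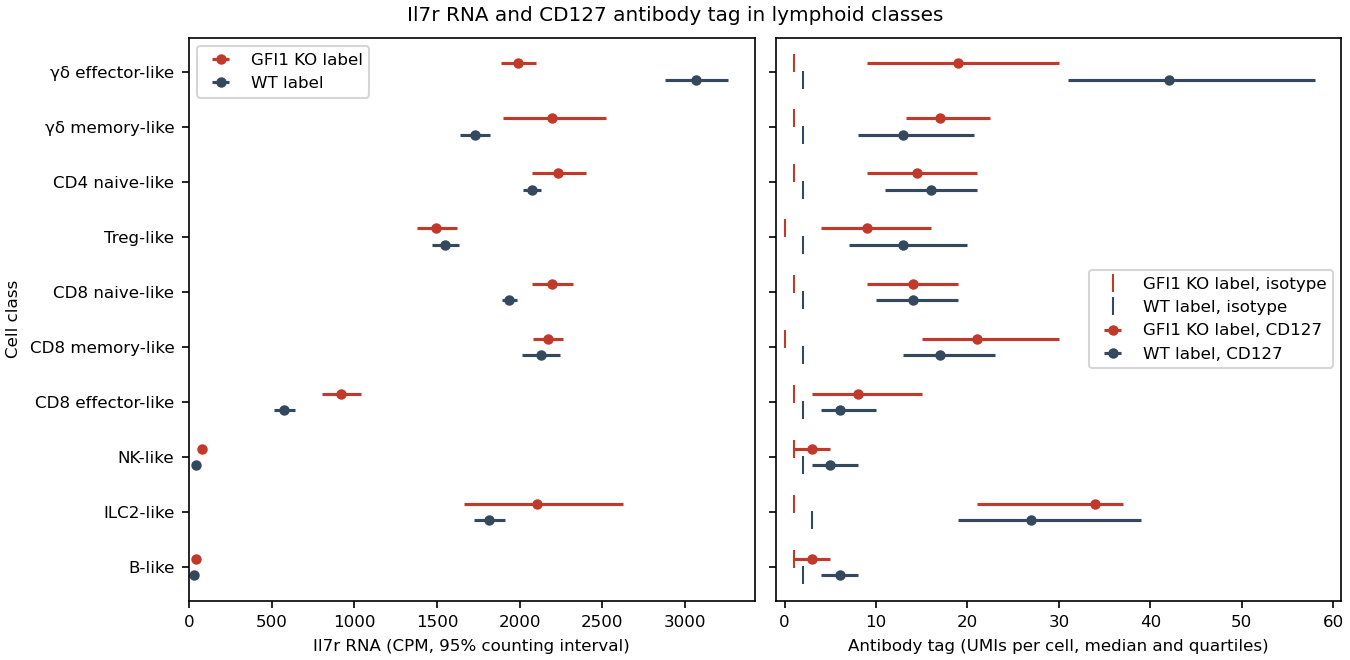
Left, Il7r level (CPM, exact 95% interval from counting) in 10 lymphoid classes, red for the GFI1 KO label and dark blue for the WT label, and right, antibody tag UMIs per cell, with CD127 as medians and quartiles and the isotype median as vertical ticks. γδ effector-like cells are lower under the GFI1 KO label in both panels (1990 and 3065 CPM, medians 19 and 42), and naive CD8-like cells have the same tag median of 14 in both libraries.

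Over whole libraries Il7r was 89.3 and 205 CPM, giving a ratio of 0.436 (0.426 to 0.447). WT levels with the GFI1 KO make-up would give 99.6 CPM and GFI1 KO levels with the WT make-up 210 CPM, so most of this gap too lay in the make-up of the libraries. The RefSeq promoter table (build GRCm38.p6, 250 bases before to 50 after the start of each gene) held 6 of the 9 genes. Only the window of Il7r among those 6 held TTCNNNGAA, the core sequence that STAT5 is known to bind and that reads the same on both strands, and 8.30% of all 32851 windows held it. AATC, the core of the motif that GFI1 is known to bind, occurred on either strand in 73.1% of all windows, among them those of Il7r and Cish and not that of Socs3. The Il7r window is printed here, and those of Cish and Socs3 further on, because IL-7 receptor and SOCS family genes are members of this STAT pathway. It lies at chr15:9529827-9530126 on the minus strand, is given 5′ to 3′, and has the match in capitals.
Il7r: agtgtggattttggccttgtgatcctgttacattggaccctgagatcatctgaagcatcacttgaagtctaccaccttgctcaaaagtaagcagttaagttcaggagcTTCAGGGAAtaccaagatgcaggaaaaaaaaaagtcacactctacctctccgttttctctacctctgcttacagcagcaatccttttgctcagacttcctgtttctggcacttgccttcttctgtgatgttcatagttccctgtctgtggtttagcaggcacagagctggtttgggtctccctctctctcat

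The match lies in a sequence and is not a measured site of binding, and no measurement of binding was made in these cells. Dendritic-like cells also had less Il7r under the GFI1 KO label, at 89.5 and 187 CPM, giving a ratio of 0.480 (0.360 to 0.628). Of the 8 genes compared in dendritic-like cells 3 were called lower, Il7r, Il2ra (14.1 and 31.5 CPM, 0.449, 0.201 to 0.879) and Il2rb (3.14 and 17.9 CPM), against 6.83% of all genes. In that class 8.81% of the WT cells and 0 of the GFI1 KO cells were called doublets, and the summed NK markers were 11.0 and 141 CPM and the summed neutrophil markers 70.6 and 701 CPM. Their part in these 3 values was not tested. Without doublet calls the log2 ratio of Il7r went from -1.06 to -0.91, and with each cell weighing the same that of Il2ra went from -1.15 to -0.99, which ends both calls.

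Il21r (ENSMUSG00000030745) was high in naive T cells, at 481 CPM (425 to 542) and 449 CPM (429 to 470) in naive CD8-like cells and 429 and 435 CPM in naive CD4-like cells, neighbours whose intervals overlapped. γδ memory-like cells stood beside them under the WT label, at 449 CPM (404 to 497), and had 280 CPM (181 to 413, 25 UMIs in 14 cells) under the GFI1 KO label. Memory CD8-like cells had 271 CPM (240 to 304) and 400 CPM (352 to 453), giving a ratio of 0.676 (0.568 to 0.805). B-like cells, on which IL-21 is known to act, had 226 CPM (210 to 244) and 208 CPM (200 to 217). The ratio in B-like cells was 1.08 (0.996 to 1.18), and B-like and naive T cells did not share the low value of NK-like cells. The ratio in γδ memory-like cells was 0.624 (0.399 to 0.936), below 1 like that of memory CD8-like cells. In γδ effector-like cells it was 1.67 (0.985 to 2.94). Over both γδ classes, whose make-up differed, it was 0.347 (0.272 to 0.437), and 0.424 (0.327 to 0.545) in γδ cells gated by single genes. In general capillary endothelial-like cells Il21r had 0 and 6 UMIs.

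Monocytes lay on the other side for Il21r. Nonclassical monocyte-like cells had 63.5 CPM (53.6 to 74.7, 146 UMIs) and 14.4 CPM (9.56 to 20.8, 28 UMIs), giving a ratio of 4.42 (2.93 to 6.88). Classical monocyte-like cells had 18.9 CPM (626 UMIs) against 3.68 CPM from 2 UMIs in 78 cells, giving a ratio of 5.14 (1.42 to 42.5). The unresolved myeloid class had 46.6 and 18.3 CPM, giving a ratio of 2.54 (2.01 to 3.25). The nonclassical value was higher than 99.7% of the genes compared in that class, and after thinning 6.14% and 1.41% of its cells had a UMI (23.6% and 5.87% without). When each library was clustered on its own, the nonclassical log2 ratio was 1.34 (0.89 to 1.83) and those of the classical and unresolved classes turned to -0.30 and -0.98.

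Il4ra (ENSMUSG00000030748) was broadly expressed, in lymphoid, myeloid and endothelial cells alike. Naive CD4-like cells had 199 CPM (153 to 254) and 320 CPM (300 to 342), giving a ratio of 0.622 (0.475 to 0.801), and memory CD8-like cells 200 and 285 CPM, giving a ratio of 0.704 (0.573 to 0.866). Naive CD8-like cells had 184 and 242 CPM, Treg-like cells 68.0 and 113 CPM, B-like cells 103 and 119 CPM, and general capillary endothelial-like cells 145 and 205 CPM, each with an interval of the ratio below 1. When cells were gated by single genes, the ratio in Treg cells turned to 1.199 (0.738 to 1.88) and that in B cells was 0.929 (0.831 to 1.04), both with intervals that held 1. Classical monocyte-like cells had 114 CPM (111 to 118) and 53.4 CPM (35.8 to 76.7, 29 UMIs), giving a ratio of 2.14 (1.49 to 3.20). The unresolved myeloid and nonclassical monocyte-like classes had ratios of 1.51 (1.33 to 1.71) and 1.42 (1.05 to 1.92). Alveolar macrophage-like cells had 86.0 CPM (82.6 to 89.4) and 83.6 CPM (81.0 to 86.2). Il4ra thus had an interval below 1 in 7 of 16 classes and above 1 in 4. The 7 were lymphoid and endothelial-like classes and the 4 were monocyte-like, unresolved myeloid and epithelial-like cells. ILC2-like cells had 0 UMIs in 9 cells, which allows up to 79.9 CPM, against 129 CPM (104 UMIs), and their interval left out 1.

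In classical monocyte-like cells 2 of 6 genes, Il21r and Il4ra, were called higher and 2, Il15 and Il7r, lower, against 3.26% and 3.44% of all genes. In the unresolved myeloid class 2 of 7, Il15ra (13.9 and 5.57 CPM, 2.49, 1.63 to 3.99) and Il21r, were higher and 2, Il2rb and Il15, lower, against 3.07% and 9.55%. In that class 0.194% and 17.0% of the cells were called doublets, and its summed neutrophil markers were 581 and 11754 CPM. The WT side of the classical monocyte-like values rests on 78 cells. In classical monocyte-like cells the summed neutrophil markers were 7385 and 1061 CPM and the granule myeloid markers 282 and 44.2 CPM. The summed classical monocyte markers were 6667 and 9807 CPM. The part of these features was not tested. When the libraries were clustered separately, the log2 ratio of Il4ra in classical monocyte-like cells went from 1.10 to 0.66 and that of Il15ra in the unresolved myeloid class from 1.32 to 0.37, and with stricter cell filters that of Il7r in classical monocyte-like cells went from -1.34 to -0.30, which ends these calls.

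Il15 (ENSMUSG00000031712), the ligand for NK and memory CD8 cells, came mostly from myeloid cells, and from different ones in the 2 libraries. Under the GFI1 KO label classical monocyte-like cells, 30.9% of the cells, gave 56.7% (55.2 to 58.3) of the 3946 Il15 UMIs, alveolar macrophage-like cells 17.9% and the unresolved myeloid class 13.5%. Those classical monocyte-like cells had higher neutrophil and granule myeloid markers than the WT ones, as given above. Under the WT label neutrophil-like cells, 7.39% of the cells, gave 40.2% (38.9 to 41.5) of the 5507 UMIs, alveolar macrophage-like cells 18%, unnamed cells 13.9% and the unresolved myeloid class 7.52%. Dendritic-like cells gave 4.49% and general capillary endothelial-like cells 3.69% under the WT label. The level over whole libraries was nonetheless much alike, 41.8 CPM (40.5 to 43.1) and 40.6 CPM (39.5 to 41.7), giving a ratio of 1.03 (0.987 to 1.07). WT levels with the GFI1 KO make-up would give 75.4 CPM and GFI1 KO levels with the WT make-up 25.4 CPM. The first value uses the WT level of classical monocyte-like cells, from 77 UMIs in 78 cells. The second uses the GFI1 KO level of neutrophil-like cells, from 10 UMIs in 8 cells.

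**Figure D4:**
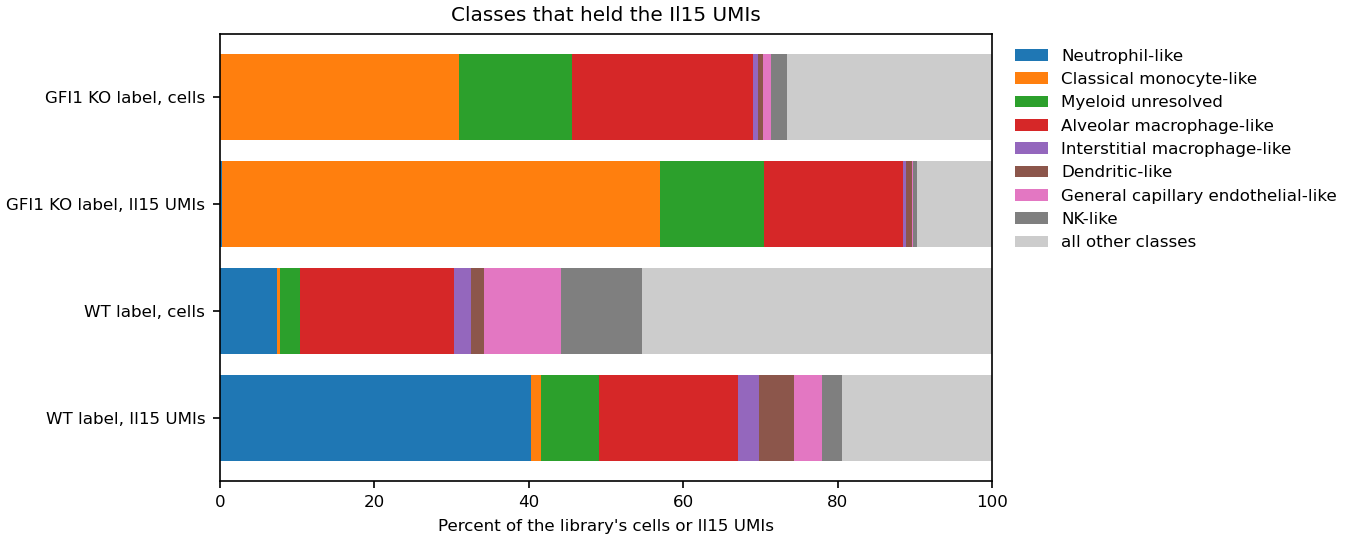
Stacked bars of the share of each library's cells and of its Il15 UMIs (percent, horizontal axis) held by 8 classes, with all other classes in grey. Classical monocyte-like cells hold 30.9% of the cells and 56.7% of the Il15 UMIs under the GFI1 KO label, and neutrophil-like cells 7.39% of the cells and 40.2% of the UMIs under the WT label.

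Within classes Il15 was highest in the few basophil or mast-like cells, at 400 CPM (37 UMIs in 19 cells) and 603 CPM (43 UMIs in 15 cells), with overlapping intervals. Neutrophil-like cells had 522 CPM (501 to 544) under the WT label and 99.9 CPM (10 UMIs in 8 cells) under the GFI1 KO label, giving a ratio of 0.191 (0.0916 to 0.352). The 8 GFI1 KO cells were unlike the WT ones, with summed granule myeloid markers of 11568 CPM against 86.7 CPM. Their summed neutrophil markers were 295440 CPM against 95884 CPM, and their median depth 14458 UMIs against 2939.5. In this class 19.6% of the genes compared had a ratio lower than that of Il15. The part of these features was not tested. After thinning, 41.4% of WT neutrophil-like cells had an Il15 UMI (56.1% without), against 0.194% of WT B-like cells (0.769% without). Classical monocyte-like cells had 67.7 CPM (64.9 to 70.5) and 142 CPM (112 to 177), giving a ratio of 0.477 (0.380 to 0.607), although thinned shares were 7.60% and 8.97%. The log2 ratio of -1.07 became -0.34 at clustering resolution 0.5 and -0.28 with each library clustered on its own, which ends the call. The unresolved myeloid class had 39.0 and 96.1 CPM, giving a log2 ratio of -1.30. This class joined clusters of different make-up. Of its cells 1496 and 309 lay in 1 cluster, with Il15 at 35.4 and 43.0 CPM, 48 and 138 in another, at 141 and 197 CPM, and 0 and 65 in the third, where 100% of the cells were called doublets. The log2 ratio became -0.64 without doublet calls and -0.42 when each library was clustered on its own, both short of the 2-fold limit. Alveolar macrophage-like cells had 24.8 CPM (23.0 to 26.6) and 21.0 CPM (19.7 to 22.3), and dendritic-like cells 53.4 and 59.8 CPM.

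Il15 and Il15ra were rarely found in the same cell. After thinning, both had a UMI in 6 of 1342 neutrophil-like and 3 of 325 dendritic-like cells under the WT label and in 3 of 3238 classical monocyte-like cells under the GFI1 KO label. The product of the separate shares would give 0.401%, 0.312% and 0.108% of cells, and 0.447%, 0.923% and 0.0926% were seen. Receptor pairs were common, with Il7r and Il2rg in 36.6% and 34.8% of γδ effector-like cells, and Il2rb and Il2rg in 28.9% and 24.3% of NK-like cells. The products of the shares were 34.5% and 35.0% for the former and 27.6% and 24.8% for the latter, close to what was seen. Il2ra and Il2rb shared 16.6% and 15.2% of γδ effector-like cells and 12.7% of WT ILC2-like cells.

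Il7 (ENSMUSG00000040329), the survival cytokine that stromal cells are known to make, was near the limit of detection, with 97 and 203 UMIs in all (1.03 and 1.5 CPM). Alveolar macrophage-like cells gave 54.6% and 50.2% of these UMIs at 1.86 CPM (1.39 to 2.43) and 2.16 CPM (1.76 to 2.62), with a ratio of 0.860 (0.605 to 1.21). After thinning, 0.244% and 0.104% of those cells had a UMI (1.87% and 2.34% without), and 0 of 929 and 0 of 3099 B-like cells, which allows up to 0.323% and 0.0968%. Alveolar macrophage-like cells held 30.2% and 34.8% of all UMIs, and unnamed cells gave 10.3% and 22.7% of the Il7 UMIs. Fibroblast-like cells had 0 and 4 UMIs, general capillary endothelial-like cells 2 and 13, and epithelial-like cells 1 and 11. Under the WT label epithelial-like cells gave 5.42% of the Il7 UMIs from 1.37% of all UMIs. Their WT level per UMI was thus above that of alveolar macrophage-like cells, on 11 UMIs. With 17 and 291 fibroblast-like cells, a fibroblast source was not detectable at this depth under the GFI1 KO label.

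Epithelial-like cells had 3 of 4 genes called higher, Il2rg (60.9 and 11.3 CPM, 5.39), Il4ra (44.9 and 15.1 CPM, 2.98) and Il15 (60.9 and 4.85 CPM, 12.6), where 20.4% of all genes were higher. Under the GFI1 KO label the cells of this class went against their name. Their CD45 tag had a median of 562.5 UMIs against 6, Ptprc, the gene of the leukocyte antigen CD45, was 925 and 105 CPM, and the summed classical monocyte markers were 1681 and 89.9 CPM. These values move with the 3 called genes, and their part was not tested. The log2 ratio of Il4ra went from 1.58 to 0.65 at clustering resolution 0.5, and that of Il2rg from 2.43 to 0.83 with each cell weighing the same. The other single calls were Il2rg in plasmacytoid dendritic-like cells (167 and 78.3 CPM, 14 GFI1 KO cells), and Il7r in alveolar macrophage-like (1.30 and 2.65 CPM) and basophil or mast-like cells (238 and 547 CPM).

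The other genes of the pathway were taken from a list of 25, of which 20 reached 30 UMIs in a class with at least 50 cells per library. Of 254 pairs 15 (5.91%) were higher and 15 (5.91%) lower, against 3.37% and 4.45% of all pairs, and the median log2 ratio was -0.01. The other ligands (6 pairs) had no call, and the other receptor chains (26 pairs) 1, Il9r lower in alveolar macrophage-like cells. Feedback and survival targets had 11 higher and 11 lower of 115 pairs (9.57% each). Kinases and STATs had 4 higher (3.74%) and 3 lower (2.80%) of 107 pairs, close to or below the shares of all pairs. The calls of Jak3 and Stat5a that follow are among these and are not read as a trait of the group. Jak3, the kinase bound to the γ chain, was called higher in memory CD8-like (28.3 and 11.3 CPM) and naive CD8-like cells (25.2 and 8.86 CPM). Stat5a, a transcription factor downstream of IL-2 and IL-7, was lower in effector CD8-like (25.9 and 98.6 CPM, 0.262, 0.101 to 0.576) and memory CD8-like cells (33.2 and 86.8 CPM, 0.383, 0.242 to 0.598).

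Socs3, which restrains cytokine signals through JAK1 and its partners, was higher under the GFI1 KO label in naive CD4-like cells, at 236 and 45.5 CPM, giving a ratio of 5.20 (3.86 to 6.95), and in naive CD8-like cells, at 227 and 66.2 CPM, giving a ratio of 3.43 (2.75 to 4.25). Memory CD8-like and NK-like cells had ratios of 2.13 and 2.07. It was lower in γδ effector-like cells, at 23.8 and 84.2 CPM with a ratio of 0.283, and in general capillary endothelial-like cells, at 171 and 353 CPM. Naive αβ and γδ effector-like T cells therefore lay on opposite sides for Socs3, and the difference was not tested. NK-like cells had higher Socs2, which acts on growth factor signals, at 49.9 and 10.7 CPM (4.66, 3.23 to 6.68), and higher Pim2, a survival kinase, at 105 and 42.9 CPM (2.44, 1.94 to 3.04). Socs2 was also higher in γδ effector-like cells, at 120 CPM (95.7 to 150, 81 UMIs) and 48.1 CPM (27.5 to 78.2, 16 UMIs). It was lower in dendritic-like cells (33.0 and 122 CPM) and the unresolved myeloid class (0.878 and 18.8 CPM), among others. These NK-like calls stand beside the lower Il15ra, Il21r and Il4ra of the same cells.

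Cish, a STAT5 target that encodes the feedback inhibitor CIS, was highest among lymphocytes where Il2ra was high. It stood at 400 and 414 CPM in ILC2-like cells, 271 and 193 CPM in γδ effector-like cells, 102 and 120 CPM in Treg-like cells and 99.8 and 48.4 CPM in effector CD8-like cells. Naive CD4-like cells had 9.33 and 13.5 CPM and naive CD8-like cells 5.40 and 10.1 CPM. In effector CD8-like cells, the class in which Il2ra was called higher, the ratio of Cish was 2.06 (1.17 to 3.63), and that of Pim1, another STAT5 target, was 2.05 (1.60 to 2.64). In Treg-like cells, where Il2ra was called lower, Cish was 102 CPM (73.5 to 138) and 120 CPM (98.6 to 145), with overlapping intervals.

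**Figure D5:**
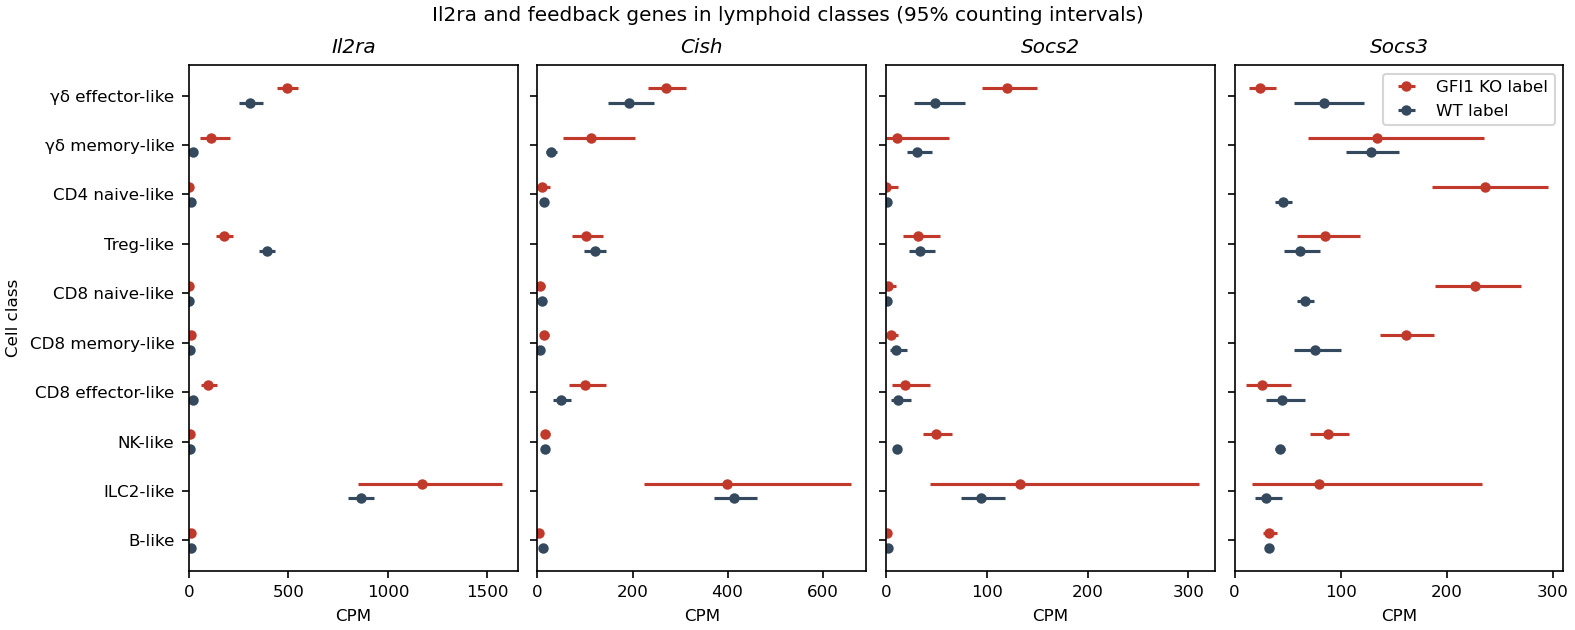
Levels (CPM, exact 95% intervals from counting) of Il2ra and the feedback genes Cish, Socs2 and Socs3 in 10 lymphoid classes, red for the GFI1 KO label and dark blue for the WT label, each panel with its own scale. Il2ra and Cish are both highest in ILC2-like cells, and Socs3 is higher under the GFI1 KO label in naive CD4-like cells (236 and 45.5 CPM) and lower in γδ effector-like cells (23.8 and 84.2 CPM).

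Of the 23 pathway genes in the promoter table, 3 had a window with TTCNNNGAA, Il4, Cish and Socs3. Cish had 2 matches, as did 0.457% of all windows with 2 or more. Its window lies at chr9:107296409-107296708 on the plus strand and that of Socs3 at chr11:117969317-117969616 on the minus strand, with the matches in capitals. They are shown because the feedback genes were the part of the pathway list with the most calls.
Cish: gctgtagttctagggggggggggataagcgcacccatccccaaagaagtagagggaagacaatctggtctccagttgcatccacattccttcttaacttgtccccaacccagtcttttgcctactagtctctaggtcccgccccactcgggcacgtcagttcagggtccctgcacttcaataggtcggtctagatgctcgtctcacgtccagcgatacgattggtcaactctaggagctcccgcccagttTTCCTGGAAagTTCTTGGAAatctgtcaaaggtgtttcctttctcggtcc
Socs3: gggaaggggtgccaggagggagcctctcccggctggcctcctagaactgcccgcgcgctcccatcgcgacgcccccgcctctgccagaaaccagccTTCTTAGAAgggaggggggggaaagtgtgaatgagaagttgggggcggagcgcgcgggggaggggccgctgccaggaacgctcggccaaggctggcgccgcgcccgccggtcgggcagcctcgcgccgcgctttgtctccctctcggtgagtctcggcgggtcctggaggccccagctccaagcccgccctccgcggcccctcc

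Likeness of pattern was read as Pearson's r of log2(CPM + 1) over 39 profiles of class and library with at least 50 cells, a description in which profiles share libraries and lineages. Il7r was most like Camk4 (r = 0.94), Cd3g (0.94) and Bcl11b (0.94). Il2rb was most like Cst7 (0.94), Sh2d2a (0.94) and Sytl3 (0.92), and Il2rg like Fli1 (0.92), 4930444A19Rik (0.90) and Rbm39 (0.88). Il2ra went with Pdcd1 (0.86), Podnl1 (0.85) and Cxcr6 (0.85), Il21r with P2ry10 (0.87), Kif21b (0.87) and Tagap (0.87), and Il15 with Spag9 (0.83), Rasgrp4 (0.81) and Lilrb4b (0.80). For Il4ra the closest were Ubn1 (0.72), 1600020E01Rik (0.69) and Rlim (0.69), and for Il15ra Prkar2a (0.58), Itga1 (0.56) and Gdpd5 (0.56), so that the pattern of the sparse Il15ra resembled no gene closely. Il7 was most like Klhdc8a (0.77), Cracr2b (0.74) and Mest (0.72), with 106 UMIs behind Klhdc8a.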

How the data were processed

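Single-cell gene expression was measured in 1 lung library labelled GFI1 KO and 1 labelled WT. The authors deposited raw UMI counts per gene and per antibody tag for called cells, without normalization, and their processing notes name Cell Ranger 9.0.1 and the builds GRCm39 and mm39. The methods state duplicates per genotype, and 1 library of each was analysed here. Cells with at least 500 UMIs, at least 200 genes and at most 20% mitochondrial UMIs were kept. Ribosomal, mitochondrial and Gm genes (9538) were left out of all denominators, leaving 94487914 UMIs in the GFI1 KO library and 135642247 in the WT library. Clusters came from 2000 variable genes without the 9 genes and the pathway list, 50 principal components and 15 neighbours, by the Leiden method with resolution 0.8 (Python 3.11.15, scanpy 1.11.5, leidenalg 0.10.2, numpy 2.4.6, scipy 1.17.1, R 4.3.3).

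A cluster took a name where 3 or more of its markers were raised 1.5-fold or more and detected in 5% or more of its cells, and was left unnamed where another lineage had 60% of its markers raised. Clusters with a Cd3e UMI in at least 30% of cells were clustered again as T cells. These thresholds, the CD127 tag readings, the splits by Foxp3 and Trdc and the restriction to classes of 50 cells were chosen after seeing the data. The 9 genes and all lists were chosen with earlier results of these data known. Counts were summed per class and library, and divided by the class's UMIs to give CPM. Intervals are exact Poisson for levels, exact conditional binomial for ratios and Clopper-Pearson for shares. Shares of cells were read after thinning each cell to 1500 UMIs, leaving out shallower cells. A count of 0 is given with the limit of 3 counts. Doublets were not removed, and Scrublet called 346 cells (3.30%) and 1146 cells (5.93%). Named genes were the 9 genes, the pathway list, Gfi1 and the 3 genes most like each of the 9, by Pearson's r among genes with at least 100 UMIs. The calculation of ratios was tested on simulated data. Promoter windows came from RefSeq on GRCm38.p6, another build than that of the counts, and no coordinate was converted.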

Additional observations from a re-analysis of the deposited data

Results flagged for a closer look

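For Il2ra, Il15ra, Il21r, Il4ra and Il15 a class called higher and a class called lower lay on opposite sides under the same pair of labels. None of these differences between classes was tested. No share of all genes with such a pattern is given here, so it is not read as a trait of these genes. The log2 ratio of Il2ra was 2.10 in effector CD8-like and -1.16 in Treg-like cells. That of Il15ra was 1.32 in the unresolved myeloid class and -2.57 in NK-like cells. Il21r had 2.36 in classical monocyte-like cells and -2.45 in NK-like cells, and Il4ra 1.58 in epithelial-like and -1.19 in NK-like cells. Il15 had 3.65 in epithelial-like cells and -1.30 in the unresolved myeloid class. Several of these did not hold under other choices. When the libraries were clustered separately, the log2 ratios in the unresolved myeloid class were 0.37 for Il15ra and -0.42 for Il15, that of Il21r in classical monocyte-like cells was -0.30 and that of Il4ra in NK-like cells -0.69. Cells gated by single genes gave -0.37 for Il2ra in Treg cells. In the cluster that held most cells of the unresolved myeloid class in both libraries, Il15 was 35.4 and 43.0 CPM. The epithelial-like cells of the GFI1 KO label carried CD45 tags and monocyte markers, as given above.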

How the results depend on the processing

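The count of pairs called higher was 10, and became 6 at clustering resolution 0.5, 5 with at least 100 UMIs per pair, 18 at 1.5-fold and 5 at 3-fold. The count called lower was 18, and became 17, 12, 26 and 9 under these. Under the other alternatives (resolution 1.2, each library clustered on its own, doublet calls removed, stricter cell filters, at least 10 UMIs per pair, CPM over all gene UMIs, equal weight per cell, ratios centred on the class median, classes of at least 50 cells) the higher count was between 7 and 12 and the lower between 12 and 19. Directions turned for Il2rb in interstitial macrophage-like cells at resolution 1.2 (log2 ratio 0.68). With each library clustered on its own they turned for Il2rb (0.60) and Il7r (2.41) in alveolar macrophage-like cells and for Il21r in classical monocyte-like cells (-0.30) and the unresolved myeloid class (-0.98). The cause was not tested. The log2 ratio of Il2ra in Treg-like cells lay between -1.19 and -0.37, that of Il7r in γδ effector-like cells between -0.66 and -0.56, and that of Il15ra in NK-like cells between -2.66 and -1.48. No paired analysis was possible because the groups hold 1 library each. The depth limits Il7 everywhere and all 9 genes in the stromal classes of the GFI1 KO label.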
